A study of Mus musculus with 2 samples.

Results

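Myosin light chains are the small subunits that wrap around the neck of each myosin heavy chain, and light chain kinases phosphorylate the regulatory kind. Of 55536 genes measured, 10 were examined: the light chain genes Myl1, Myl2, Myl3, Myl4, Myl6, Myl7, Myl9 and Myl12a and the kinase genes Mylk and Mylk3. They were chosen by symbol, and each symbol belonged to 1 gene identifier of the annotation. The study sequenced total heart RNA of 2 male B6CASTF1/J mice, a hybrid strain, at 25 days of age, with 1 library per heart made from 300 ng of RNA. The labels number the hearts as biological replicates 1 and 2, taken from animals 03 and 04 of a tissue bank, and give no treatment and no other group. The labels also give both hearts the same donor identifier, and the hearts were treated here as 2 animals of 1 group, so that no comparison between groups was made. A strain cross, age or sex effect cannot be read from these data, because both hearts share all of them.

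Each myosin head carries 1 essential and 1 regulatory light chain. In the heart, ventricular muscle is known for Myl2 (regulatory) and Myl3 (essential), and atrial muscle for Myl7 (regulatory) and Myl4 (essential), while Myl9, Myl12a and Myl6 belong to smooth muscle and nonmuscle myosin and Myl1 to fast skeletal muscle. Mylk3 encodes the cardiac light chain kinase, and Mylk the smooth muscle and nonmuscle kinase. The kinases add phosphate to a serine near the amino end of the regulatory light chain, and a myosin phosphatase removes it.

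The coding bases around that serine are shown because they are the shared target of the kinases among the 4 regulatory members. They were read from the GENCODE M21 transcripts Myl2-201, Myl7-201, Myl9-201 and Myl12a-201, run 5′ to 3′, and have the serine codon in capitals, which is codon 15 in Myl2, 23 in Myl7 and 20 in Myl9 and Myl12a, counted from the start codon.
Myl2: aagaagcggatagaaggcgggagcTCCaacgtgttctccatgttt
Myl7: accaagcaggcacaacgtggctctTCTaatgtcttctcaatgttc
Myl9: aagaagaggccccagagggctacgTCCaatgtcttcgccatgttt
Myl12a: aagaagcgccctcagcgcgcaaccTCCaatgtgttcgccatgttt
Over their whole coding sequences, Myl9 and Myl12a were identical at 85.5% of aligned bases, and Myl2 and Myl7 at 64.3%. Myl12a and Myl12b, a neighbouring regulatory light chain gene, were identical at 96.5%, so that a read can match both.

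Reads assigned to genes summed to 38253821 estimated counts in replicate 1 and 40655101 in replicate 2. Levels are given as TPM, an abundance that divides counts by transcript length and is scaled to 1 total in all libraries, from the gene tables (here the first quantification). They are written as mean ± SD of the hearts (n = 2), or per heart. A second quantification, made by the authors directly from reads, is given where it differs. The markers of heart muscle (Tnnt2, Tnni3, Actc1, Ryr2 and Actn2) were at 1 TPM or more in 5 of 5 cases. Among the 7 skeletal muscle markers 3 reached 1 TPM, and the sum was nearly all Ckm, which heart muscle also makes, whereas Myog was at 0 counts in both hearts and Myh4 at 0 and 3. In RNA of a whole heart, fewer cells of a type and less RNA per cell cannot be told apart.

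All 10 genes were found at 1 TPM or more in both hearts, from 10.2 TPM for Mylk to 6110 TPM for Myl2. Mylk, the lowest, ranked 4626 among 21951 protein-coding genes. The share of all genes at 1 TPM or more was not computed, so that counts of genes above this level here and below are descriptions only. Sorted by mean level the order was Myl2, Myl3, Myl4, Myl12a, Myl7, Mylk3, Myl6, Myl9, Myl1 and Mylk. Of the 9 pairs of neighbours in this order, 8 did not overlap between the hearts and differed by more than the larger SD. The pair that did not was Myl12a and Myl7. In the second quantification 9 of 9 pairs were apart, but Myl12a stood above Myl4, and Myl6 stood above Mylk3.

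**Figure D1:**
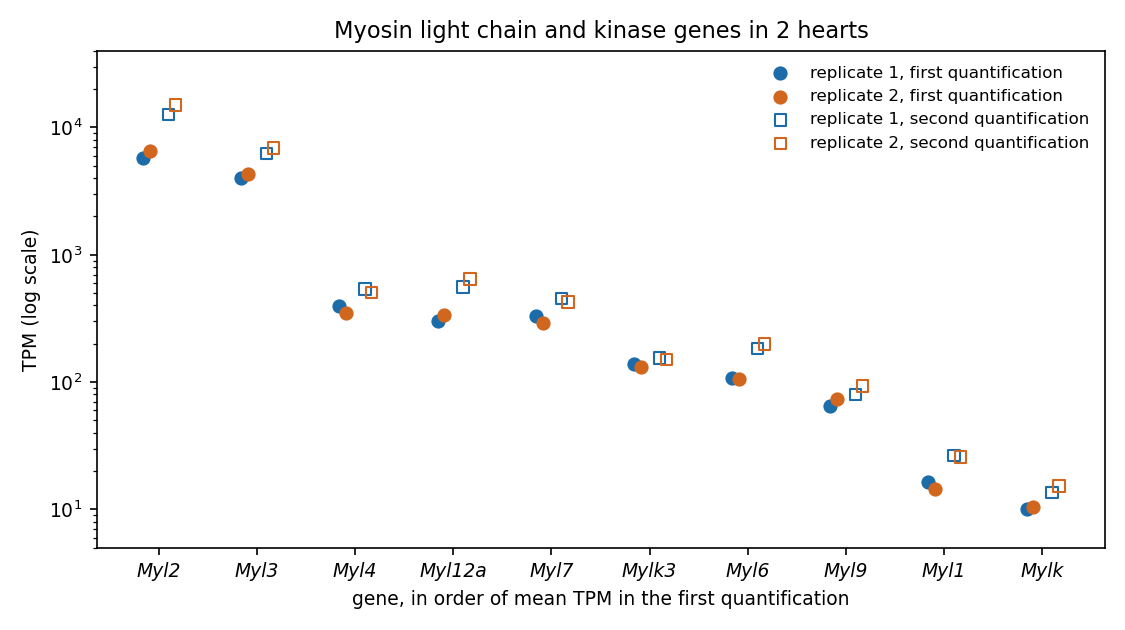
TPM (log scale) of the light chain and kinase genes in each heart, ordered by mean level in the first quantification, with filled circles for the first and open squares for the second quantification. The hearts lie close together within each quantification, and the lowest Myl3 value, 4000 TPM, lies above the highest value of any lower-ranked gene, 644 TPM for Myl12a in the second quantification.

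The regulatory light chain of the ventricle, Myl2 (chr5:122100951-122113472, plus strand, mm10), had a level of 5746 TPM in replicate 1 and 6473 in replicate 2. It ranked 13 among 21951 protein-coding genes. The essential chain of the ventricle, Myl3 (chr9:110741861-110769798, plus strand), stood at 4000 and 4319 TPM and ranked 19. The hearts did not overlap between these genes, with Myl2 higher than Myl3 in each heart. The log2 ratio of Myl2 over Myl3 was 0.52 in replicate 1 and 0.58 in replicate 2 (0.55 ± 0.04, SD, n = 2). It turned to -0.13 ± 0.02 when transcripts annotated as noncoding were left out, because a noncoding Myl2 transcript held a large part of that gene's level, and it was 1.07 ± 0.06 in the second quantification. Noncoding transcripts were left out in the first quantification only. In the second, the leading coding transcripts were Myl2-201 at 5200 and 6251 TPM and Myl3-201 at 4225 and 4927 TPM. Which of the ventricular chains was more abundant therefore differed with the transcripts counted in the first quantification.

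The regulatory light chain of the atrium, Myl7 (chr11:5896637-5898782, minus strand), had a level of 330 TPM in replicate 1 and 291 in replicate 2. The essential chain of the atrium, Myl4 (chr11:104550663-104595753, plus strand), stood at 394 and 352 TPM. Myl4 was the higher of the pair in each heart, and the values of the hearts did not overlap. The log2 ratio of Myl7 over Myl4 was -0.26 ± 0.01 in the first and -0.25 in both hearts of the second quantification. Over protein-coding transcripts alone, taken from the first quantification, it turned to 0.69 ± 0.04. The Myl4 transcripts left out there were nearly all of the retained-intron kind.

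As a percent of the summed TPM of all light chain genes measured, Myl2 held 52.9% ± 1.18 and Myl3 36.0% ± 0.275. The atrial genes Myl4 and Myl7 together held 6.56% in replicate 1 and 5.34% in replicate 2. The smooth muscle and nonmuscle genes Myl6, Myl9 and Myl12a together held 4.29% in each heart. Regulatory members (Myl2, Myl7, Myl9 and Myl12a) summed to 59.0% ± 0.847 and essential members (Myl1, Myl3, Myl4 and Myl6) to 40.4% ± 0.829. In the second quantification regulatory members summed to 67.0% ± 0.997. Over protein-coding transcripts alone, an alternative chosen after seeing the data, regulatory and essential members were nearly level, at 4287 against 4298 TPM in replicate 1 and 4654 against 4598 in replicate 2. This restriction was applied to the first quantification only. In that quantification the lead of the regulatory members thus depended on the transcripts counted.

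Among the smooth muscle and nonmuscle chains, Myl12a (chr17:70993656-71002878, minus strand) had the highest level, at 300 TPM in replicate 1 and 338 in replicate 2. Its level was near that of the atrial gene Myl7, and their hearts overlapped. Myl12a was also the member with the largest deposited posterior SD of its count, at 33.3 and 35.1 counts out of 8356 and 10142. This SD was 0 in both hearts for 7 of the 10 genes. It describes uncertainty of the count, and shared reads themselves were not counted. Myl12b, the neighbouring copy, had 70.0 ± 2.88 TPM by the first quantification and 30.7 by the second. In the first, 75.7% of this was the retained-intron transcript Myl12b-202, at 52.4 TPM in replicate 1 and 53.45 in replicate 2. That transcript was at 0 in the second. A further gene identifier with the symbol Myl12b was at 7.52 ± 0.523 TPM in the first and listed at 0 in the second. The level of Myl12b therefore differed with the transcripts counted. How reads were divided between Myl12a and Myl12b was not tested.

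Myl6 (chr10:128490860-128494145, minus strand), the essential chain of smooth muscle and nonmuscle myosin, was at 108 and 105 TPM. Myl9 (chr2:156775420-156781658, plus strand), the regulatory chain of smooth muscle, was at 65.1 and 73.3 TPM. Myl6 was the higher in each heart, with a log2 ratio of Myl6 over Myl9 of 0.63 ± 0.15, and of 1.15 ± 0.08 in the second quantification. The 6 smooth muscle markers (Acta2, Tagln, Cnn1, Smtn, Myocd and Myh11) were all at 1 TPM or more, with sums of 181 TPM in replicate 1 and 208 in replicate 2. Acta2 (64.4 and 89.3 TPM), Smtn (53.7 and 62.2) and Myocd (28.8 and 30.7) made up most of the sums. Tagln (23.1 and 16.25 TPM), Myh11 (7.78 and 6.99) and Cnn1 (2.98 and 2.73) were lower in replicate 2.

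Myl1 (chr1:66924295-66945404, minus strand), the essential chain of fast skeletal muscle, was at 16.6 TPM in replicate 1 and 14.6 in replicate 2. It was the light chain member with the lowest level, below Myl3 by a log2 ratio of 8.05 ± 0.21 in each heart's own scale. The other fast skeletal chain, Mylpf, was at 1.25 ± 0.290 TPM from 9 and 13 counts, so that Myl1 was the more abundant of these in both hearts. Myl6b was at 1.04 ± 0.219 TPM, and Myl10 was at 0 counts in both hearts, which allows up to 3 counts in each, or 0.0784 and 0.0738 CPM (counts scaled to 1 total in all libraries). Myl5 was not analysed here.

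The cardiac kinase gene Mylk3 (chr8:85324303-85386345, minus strand) was at 139 TPM in replicate 1 and 131 in replicate 2. The smooth muscle kinase gene Mylk (chr16:34745210-35002420, plus strand) was at 10.02 and 10.45 TPM. Mylk3 was higher in each heart, with a log2 ratio of Mylk3 over Mylk of 3.78 in replicate 1 and 3.64 in replicate 2 (3.71 ± 0.10). The ratio stayed above 3 in the second quantification (3.40 ± 0.14). Mylk4, another kinase of this family, was at 105 ± 5.01 TPM, below Mylk3 and above Mylk in each heart, and Mylk2, the kinase of skeletal muscle, had 0 and 2 counts.

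Of 8 other genes listed as kinases of the regulatory light chain, 5 were at 1 TPM or more in both hearts. After Mylk4 the highest was Rock2 at 25.2 ± 1.19 TPM, and the lowest of the 5 were Dapk1 at 10.3 ± 0.311 and Dapk3 at 9.84 ± 0.559 TPM. All 9 genes listed for the myosin phosphatase and its regulators were at 1 TPM or more. The highest were Ppp1cb at 157 ± 1.48 and Ppp1ca at 119 ± 2.71 TPM, which encode phosphatase catalytic subunits. In the second quantification Ppp1cb was at 152 and Ppp1ca at 154 TPM, so that their order differed. Another catalytic subunit gene, Ppp1cc, was at 39.6 ± 1.05 TPM, and the inhibitor Ppp1r14a was lowest at 3.17 ± 0.375 TPM. Which of the listed catalytic subunits acts on myosin was not tested. The inhibitor Ppp1r14c, named like Ppp1cc after its values were seen, was at 61.5 TPM in replicate 1 and 81.6 in replicate 2.

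Of 12 heavy chain genes, the partners of the light chains, 7 were at 1 TPM or more. Myh6, the alpha cardiac heavy chain, was at 8807 and 8307 TPM, and Myh7, the beta chain, at 843 and 774 TPM. In the second quantification Myh6 was at 7705 and 7492 TPM, and Myh7 was higher than in the first, at 1848 and 1800 TPM. The lowest of the 7 were Myh10 at 9.75 ± 1.58 and Myh11, the smooth muscle heavy chain, at 7.39 ± 0.559 TPM. Myh3, an embryonic skeletal chain, had 0 counts in both hearts. Myl2 thus stood below Myh6 by the first quantification (6110 against 8557 TPM), and above it by the second (13837 against 7599), so that their order differed with the quantification.

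**Figure D2:**
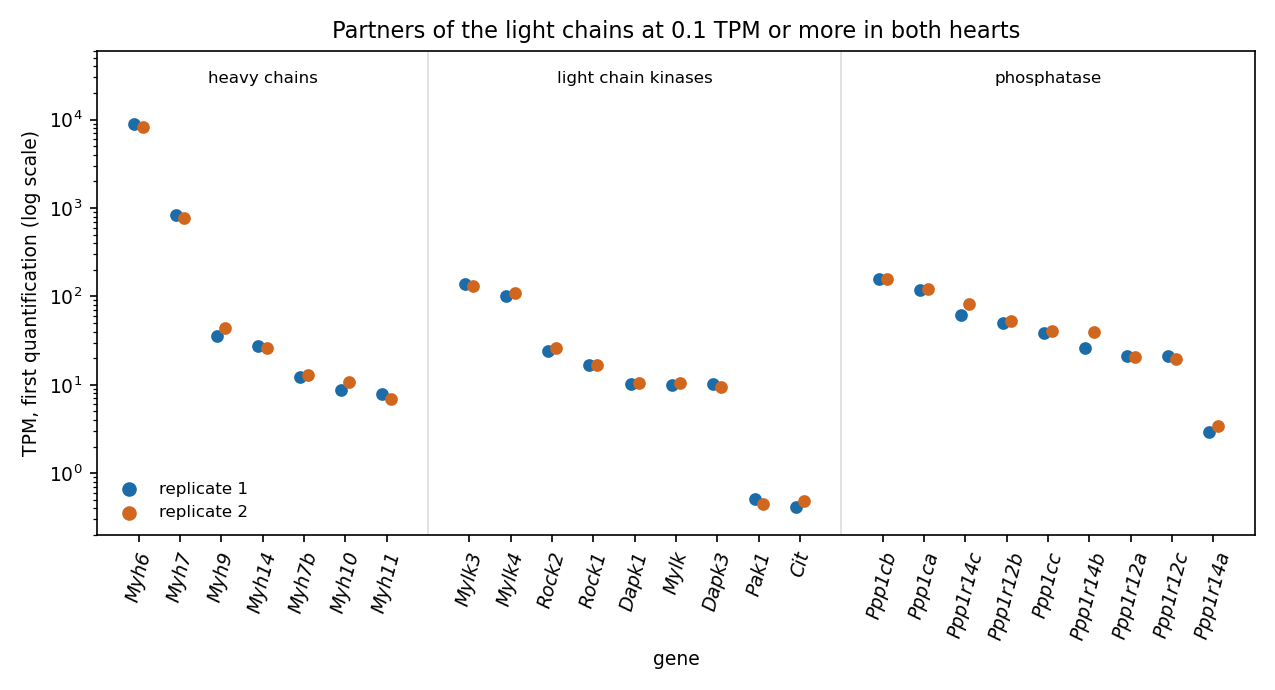
TPM in the first quantification (log scale) of heavy chain, light chain kinase and myosin phosphatase genes at 0.1 TPM or more in both hearts, 1 point per heart. Among the kinases Mylk3 and Mylk4 lie above 100 TPM, while Mylk lies near 10 TPM beside Dapk1 and Dapk3.

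The second quantification gave higher TPM for all 10 members, by 1.13-fold for Mylk3 to 2.26-fold for Myl2. The estimated counts of 9 members differed less, at 0.966-fold for Myl9 to 1.12-fold for Mylk. Myl7 was the exception at 0.722-fold, with 1.41-fold the TPM. Levels in TPM are therefore comparable within a quantification only.

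Between the hearts, counts scaled by TMM factors were compared as the log2 ratio of replicate 2 over replicate 1, with an exact binomial 95% interval that covers counting error only. None of the 10 members differed by 2-fold or more, against 1.20% of the 12911 genes with a mean CPM of at least 1. The median absolute log2 ratio was 0.14 over the members and 0.12 over all these genes. The counting interval excluded 0 for 9 members, against 33.2% of all genes tested, and against 42.2% of the 7598 genes whose mean CPM was at least that of the lowest member. A counting interval narrows as counts rise, and Myl3, for one, had 109587 counts in replicate 1 and 127273 in replicate 2. These percents, and those by direction below, therefore do not compare genes at like depth. With 1 library per animal the differences between the hearts describe these hearts only, and no test was made.

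The 4 members above 0 (16.7% of all genes tested lay there) were Myl9 at 0.16, Myl12a at 0.14, Myl2 at 0.13 and Myl3 at 0.08, although with spike-in scaling Myl12a, Myl2 and Myl3 turned to -0.00381, -0.014 and -0.067 and Myl9 was at 0.02. The 5 members below 0 (16.6% of all genes tested) were Myl1 at -0.25, Myl7 at -0.22, Myl4 at -0.18, Myl6 at -0.11 and Mylk3 at -0.09. Mylk, at 0.01, had an interval that spanned 0, and was at -0.14 with spike-in scaling. By sign alone 5 members were higher and 5 lower in replicate 2 under TMM, and 1 higher and 9 lower under spike-in scaling. Spike-in scaling moved the median of all genes by -0.14. Relative to the median of each scaling 4 members were above and 6 below under TMM, DESeq2 size factors and spike-ins. These scalings shift all genes alike, so that this agreement was given in advance. The second quantification, which could have differed, also had 4 above and 6 below.

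Both ventricular chains thus lay above 0 and both atrial chains below 0 under TMM scaling. Ratios within a heart, which no scaling changes, moved in the same way, but they come from the same reads and are not separate evidence. The log2 ratio of Myl2 over Myl7 was 4.12 in replicate 1 and 4.48 in replicate 2, and 4.81 and 5.13 in the second quantification. That of the essential pair, Myl3 over Myl4, was 3.34 and 3.62, and 3.53 and 3.77 in the second. Pairs of other kinds rose too: Myl2 over Mylk3 was 5.37 and 5.62, and Myl9 over Myl6 -0.73 and -0.52. In the second quantification these were 6.36 and 6.63, and -1.21 and -1.09. In all of these pairs a member above 0 under TMM stood over a member below 0, so that a rise was given in advance. The pairs are therefore no test of whether a rise is particular to ventricular over atrial chains. The 5 atrial markers, all at 1 TPM or more, summed to 980 TPM in replicate 1 and 958 in replicate 2, and 4 of the 5 had a lower scaled count in replicate 2, with log2 ratios of -0.06 for Nppa, -0.07 for Nr2f2, -0.12 for Bmp10 and -0.26 for Sln, against 0.03 for Tbx5. The 4 ventricular markers, of which 3 reached 1 TPM, summed to 24.3 and 28.6 TPM. In replicate 2, 3 of the 4 were higher, with log2 ratios of 0.31 for Irx4, 0.26 for Scn4b and 0.16 for Kcnj2, against -0.01 for Hey2. The counting intervals of Scn4b, Hey2, Nr2f2 and Tbx5 spanned 0. The median log2 ratio of all genes tested was 0.01, so that either sign was common among them. Under the same TMM scaling 4 of 5 heart muscle markers were higher in replicate 2, with sums of 11656.5 and 13395 TPM. The log2 ratios were 0.35 for Actc1, cardiac actin, 0.07 for Actn2, 0.05 for Tnnt2 and 0.02 for Tnni3, against -0.15 for Ryr2. Actc1, which went from 4436 to 5811 TPM, made up most of the rise in the sum. Of the fibroblast markers 5 of 5 (Col1a1, Col3a1, Dcn, Pdgfra and Tcf21) were lower in replicate 2, with sums of 405 and 368 TPM. The counting interval of Tcf21 spanned 0. Endothelial markers were higher in 4 of 5 cases (187 and 202 TPM), pericyte markers in 3 of 4 (184 and 200 TPM) and smooth muscle markers in 3 of 6. The part of any of these markers in the differences was not tested.

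**Figure D3:**
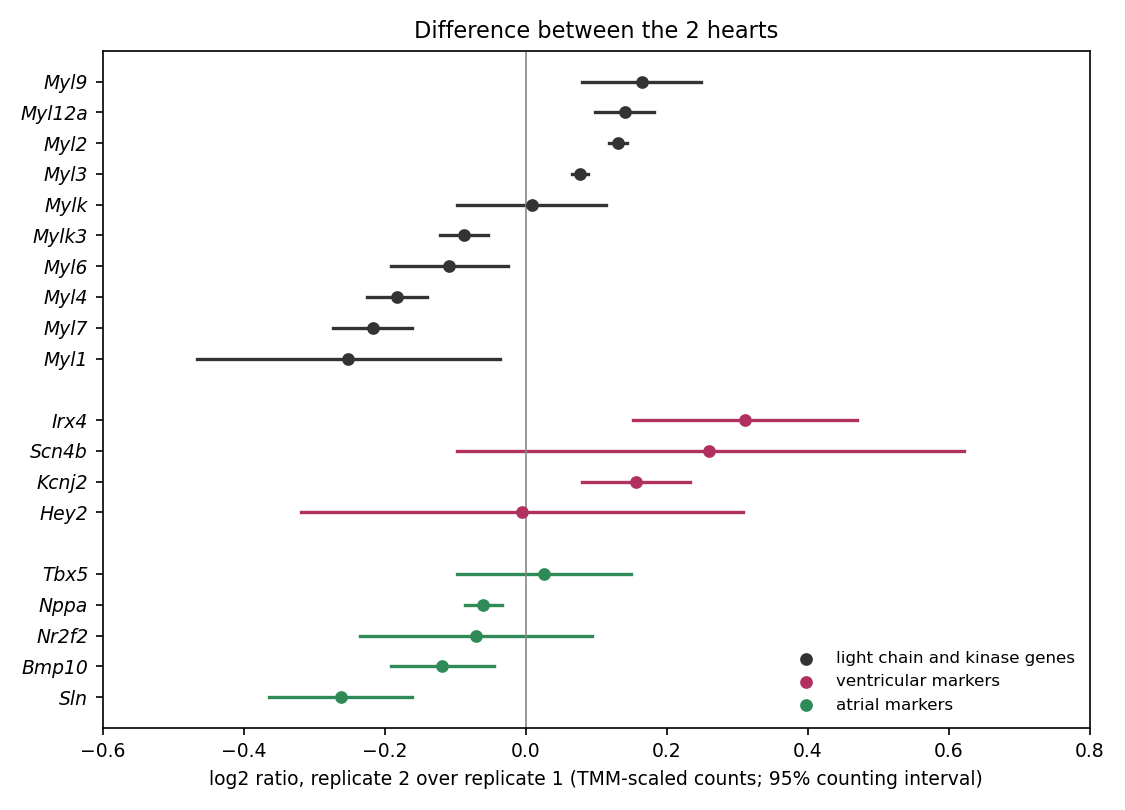
Log2 ratio of replicate 2 over replicate 1 from TMM-scaled counts, with 95% counting intervals, for the light chain and kinase genes and for the ventricular and atrial markers. Myl2 and Myl3 lie to the right of 0 (0.13 and 0.08), and Myl4 and Myl7 to the left (-0.18 and -0.22), under this scaling.

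Of the genes, 9 have more than 1 annotated transcript and Myl7 has 1, and shares are percents of the gene's summed transcript TPM. The hearts had the same leading transcript for 10 of 10 genes in the first transcript table and for 9 in the second. The same transcript led in both tables for only 5 of 10: Myl2, Myl3, Myl7, Myl9 and Mylk3. When transcripts with the same coding sequence were added up, the leading coding sequence held over 50% in both tables for 6 genes. Shares of single transcripts are therefore given from both tables.

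Myl2-201, the coding transcript of 662 bases, held 61.1% ± 0.988 of Myl2 in the first table and 41.3% ± 0.557 in the second. Myl2-210, which is annotated without a coding sequence and ends at the same base, held 37.9% ± 1.07 and 15.0% ± 1.48. In the second table, 20.5% went to Myl2-208, also without a coding sequence. Transcripts without a coding sequence together held much the same share in both tables, at 38.1% ± 1.06 and 40.2% ± 0.638. Myl3-201 held 99.5% ± 0.0758 of Myl3 in the first table and 69.6% ± 2.32 in the second, where Myl3-205, at 0 in the first, held 27.0% ± 0.982.

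Myl4-202 led Myl4 in the first table at 50.9% ± 0.998 and Myl4-203 in the second at 64.0% ± 0.401. These have the same coding sequence of 582 bases and differ in where they start. Their coding sequence held 51.3% ± 1.10 and 64.0% ± 0.401, and the retained-intron transcript Myl4-204 held 48.2% ± 1.11 and 35.6% ± 0.327. For Myl12a, Myl12a-210 led in the first table (67.7% ± 1.66) and Myl12a-201 in the second (51.1% ± 2.67), again with the same coding sequence, which held 99.4% ± 0.210 and 67.0% ± 1.31 over 6 transcripts. Myl9-201 held 93.6% ± 1.71 and 96.7% ± 4.65 of Myl9.

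**Figure D4:**
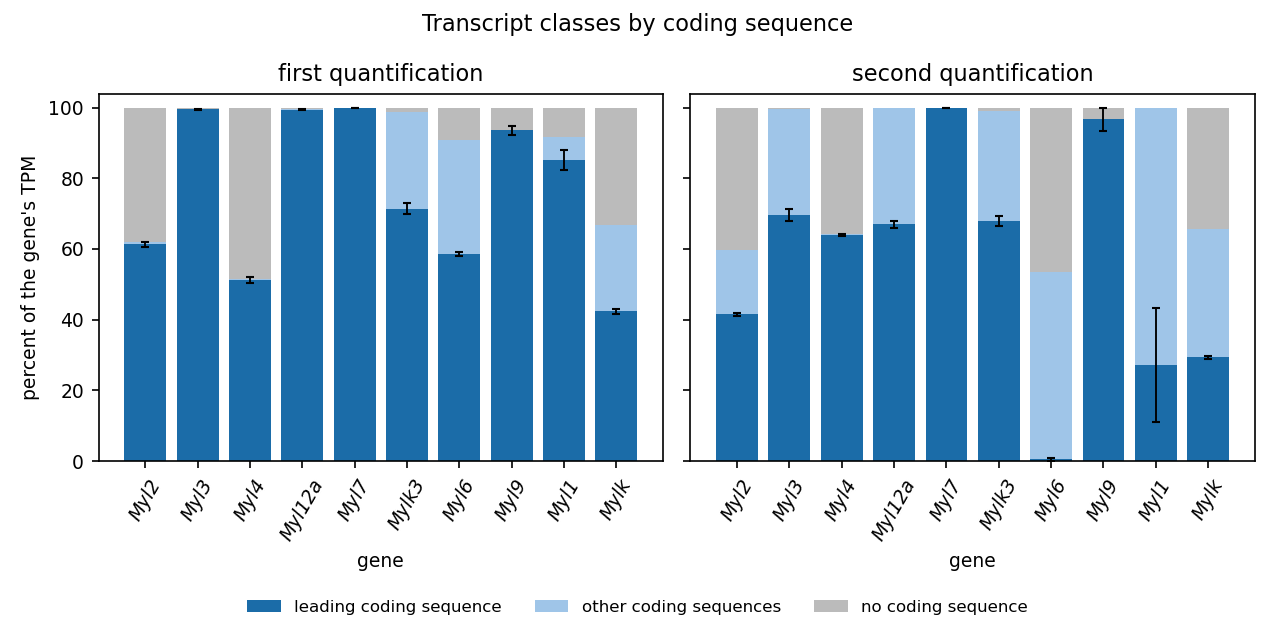
Percent of each gene's transcript TPM held by its leading coding sequence, by other coding sequences and by transcripts without one, as the mean of both hearts in the first and second quantification, with bars that span both hearts for the leading class. Myl2 and Myl4 have large parts without a coding sequence in both panels, and the leading coding sequence of Myl6 falls from 58.6% in the first to 0.427% in the second.

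Myl6 makes alternative ends of its coding sequence, shown here because the transcripts that led in the first table differ there. Myl6-206 holds an exon of 45 bases (chr10:128491720-128491764, mm10) that is annotated with these ends in 1 of the 15 annotated Myl6 transcripts. The last 41 coding bases of each follow, 5′ to 3′, with the 29 last bases from the first difference on, stop codon included, in capitals.
Myl6-201: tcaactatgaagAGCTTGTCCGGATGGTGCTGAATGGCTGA
Myl6-206: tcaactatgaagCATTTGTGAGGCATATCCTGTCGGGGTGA
Myl6-201, without the exon, held 58.6% ± 0.607 of Myl6 in the first table and Myl6-206, with it, 26.1% ± 0.738. In the second table Myl6-206 held 14.9% ± 0.154, Myl6-201 held 0.427% and Myl6-205 led at 35.3% ± 1.57. Myl6-205 has a shorter coding sequence, whose last 392 bases are the same as those of Myl6-201, so that it has the same end. Myl6-206 was thus below Myl6-201 in the first table. In the second it was above Myl6-201 but below Myl6-205, so that a transcript with the end of Myl6-201 led in both tables. An exon of 2 further transcripts overlaps the alternative exon, so that the share of all transcripts with its bases is not given by Myl6-206 alone.

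Myl1 makes a longer and a shorter fast skeletal chain from separate starts. Myl1-201, with 567 coding bases, and Myl1-202, with 453, share their last 426 coding bases. Myl1-202 held 88.0% and 82.3% of Myl1 in the hearts in the first table, and Myl1-201 held 2.01% ± 0.407. In the second table Myl1-202 held 11.1% in replicate 1 and 43.3% in replicate 2, and Myl1-207 held 62.0% and 24.9%, so that the leader differed between the hearts. The gene had 374 and 346 counts in the first quantification, the fewest of the members.

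The kinase gene Mylk also encodes telokin, the carboxyl end of the kinase made as a protein of its own without kinase activity. Mylk-203 starts at position 34994807 of chromosome 16, inside the gene, and its 480 coding bases are the same as the last 480 of the 5853 of Mylk-201. Mylk-201, the full kinase, held 42.4% ± 1.05 of Mylk in the first table and 29.3% ± 0.684 in the second. Mylk-203 held 24.4% ± 3.06 and 36.4% ± 4.56. Transcripts without a coding sequence held 33.3% ± 2.01 and 34.2% ± 3.87. The full-length kinase transcript was therefore below 50% of the Mylk level in each table, at 4.17 and 4.50 TPM in the first. Of Mylk3, Mylk3-201 with 2388 coding bases held 71.4% ± 2.06 and 67.9% ± 2.10, and Mylk3-202 with 2175 held 21.6% ± 1.11 and 30.7% ± 1.35.

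Promoter sequences of the RefSeq table (GRCm38.p6) were found for 10 of 10 members, in 13 entries. For 6 members an entry started within 50 bases of the start of a leading transcript: Myl3, Myl6, Myl7, Myl9, Mylk and Mylk3. The single entry of Myl4 lies at the start of Myl4-201, which held 0.00127% ± 0.00180 of the gene in the first table, and 26618 bases before the start of Myl4-202. The CArG box, the motif that serum response factor binds in muscle genes, was searched on both strands of the 250 bases before each start. It was found in 4 of the 13 entries of members, of which 3 were among the 6 near a leading start (Myl3, Myl7 and Myl9), and in 1.47% of 32851 RefSeq promoters. TATAAA, searched in the same way, was in 2 of the 13 entries (Myl1 and 1 entry of Myl2), in 0 of the 6, and in 12.4% of all.

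The 160 bases before the start of the leading transcript of those 3 genes are printed 5′ to 3′ on the gene's strand, with the CArG box in capitals. They are chr11:5898783-5898942 (minus strand) for Myl7, chr9:110763486-110763645 (plus) for Myl3 and chr2:156775260-156775419 (plus) for Myl9.
Myl7: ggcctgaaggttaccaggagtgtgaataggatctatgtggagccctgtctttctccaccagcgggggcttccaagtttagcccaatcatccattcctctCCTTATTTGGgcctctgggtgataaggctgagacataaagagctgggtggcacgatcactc
Myl3: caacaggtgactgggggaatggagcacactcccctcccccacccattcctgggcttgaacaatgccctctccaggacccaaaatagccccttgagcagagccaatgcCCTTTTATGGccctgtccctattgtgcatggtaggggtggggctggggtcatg
Myl9: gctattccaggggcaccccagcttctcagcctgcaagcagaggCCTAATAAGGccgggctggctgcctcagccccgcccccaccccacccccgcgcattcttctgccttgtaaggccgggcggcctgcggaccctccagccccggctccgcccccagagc
The box began 61 bases before the start in Myl7, 53 in Myl3 and 117 in Myl9. These genes stood at 311 ± 27.7, 4159 ± 226 and 69.2 ± 5.79 TPM, so that genes with a box differed widely in level. A match is a description of the letters in this window, and no binding was measured.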

How the data were processed

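The authors deposited, for each heart, a gene table with estimated counts and TPM derived from an alignment to the transcriptome, a transcript table of the same source and a second transcript table derived from a read file, per the labels' and deposited text files, which name mm10 and GENCODE M21. Posterior SDs of counts and each transcript's percent of its gene (IsoPct) are columns the authors deposited in the first tables; percents were recomputed here from transcript TPM. The tools used, with their settings, are not named in the sources used here. Spike-ins (0.505% and 0.577% of counts) and 26248 transfer RNA rows (3 and 1.85 counts) were left out of library sizes. The second table was summed per gene. Log2 ratios within a heart used TPM + 0.1. No p is given, because the smallest two-sided p of an exact sign-flip test over 2 hearts is 0.5. Ratios between hearts used estimated counts rounded to whole numbers, TMM factors (edgeR 4.0.16 in R 4.3.3) and genes with a mean CPM of at least 1, with exact binomial (Clopper-Pearson) 95% intervals. This step was tested on simulated counts. Intervals cover counting error only, as the reads carry no molecular identifiers. Transcripts were grouped by identical coding sequence from GENCODE M21. Alternatives were the second quantification, posterior mean TPM, a pseudocount of 1, protein-coding transcripts only, DESeq2 1.42.0 size factors, spike-in scaling, no CPM filter and each heart alone. All 10 members are named, with the genes of highest and lowest mean of each pathway list (kinases, phosphatase, heavy chains) at 1 TPM or more, other light chains and kinases of the same families, and genes at 0. Some genes of the lists are not reported here. Members and lists were chosen with earlier results of these data known. Scripts ran in Python 3.11.15 with Biopython 1.88, matplotlib 3.10.9, scipy 1.17.1, pandas 2.3.3 and numpy 2.4.6.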

Additional observations from a re-analysis of the deposited data

How the results depend on the processing

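The setting of protein-coding transcripts only was applied to the first quantification alone. With it, the log2 ratio of Myl2 over Myl3 turned from 0.55 to -0.13. That of Myl7 over Myl4 turned from -0.26 to 0.69, and Mylk3 over Mylk moved from 3.71 to 4.27. In the second quantification Myl2 over Myl3 was 1.07, Myl6 over Myl9 was 1.15, Mylk3 over Mylk was 3.40, and Myl2 and Myl3 held 91.5% of the light chain TPM in place of 88.9%. The log2 ratio of summed regulatory over summed essential members moved from 0.55 to 0.0069 with protein-coding transcripts only, which was chosen after seeing the data. With a pseudocount of 1, Mylk3 over Mylk was 3.60. Without 1 heart in turn the ratios ranged from 0.52 to 0.58 (Myl2 over Myl3), -0.27 to -0.25 (Myl7 over Myl4), 0.52 to 0.73 (Myl6 over Myl9), 3.64 to 3.78 (Mylk3 over Mylk) and 7.91 to 8.20 (Myl3 over Myl1), and the share from 88.3% to 89.6%. Spike-in scaling turned the ratio between hearts of Myl2 to -0.014, of Myl3 to -0.067 and of Myl12a to -0.00381. The count of genes that differed 2-fold was 155 of 12911, and 2125 without the CPM filter, which adds genes of few counts. Posterior mean TPM moved 1 of the 10 levels by more than its SD. The design of 1 group of 2 hearts is too small for any test to pass a threshold, and depth limits the calls for Myl10, Mylk2 and the skeletal heavy chains, which are near 0 counts. No paired analysis was possible because the series holds 1 group only.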
